A study of Mus musculus with 16 samples.

Results

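Interleukin-1 signalling in the wounds was followed through 7 genes, Il1a, Il1b, Il18 and Il33 for ligands of the family, Il1rn for the receptor antagonist, Il1r1 for the signalling receptor and Il1r2 for the decoy receptor. Every probe whose deposited transcript identifier belonged to one of these symbols in the RefSeq table was taken, which gave 7 of 39429 probes, 1 for each gene, and 7 of the 20832 symbols that had a probe. The arrays were read in 1 colour from RNA of whole-wound homogenates, which hold the wound with the intact skin around it. All mice were female and carried 2 full-thickness wounds on the back. The WT group was C57BL/6J at 10 to 12 weeks of age. The other groups were db/db mice of the strain C57BLKS/J Iar-+Leprdb/+Leprdb at 10 weeks, which are homozygous for a mutation of the leptin receptor gene (Lepr db) and develop type 2 diabetes. The db/db group had no topical treatment. In the db/db + estrogen group, estradiol benzoate dissolved in sesame oil was put on the wounds daily (0.75 μg/g/day), and in the db/db + vehicle group only the oil. For each of these 4 groups, 2 arrays carried the label day 7 after wounding and 2 the label day 14, and the series describes them as biological replicates. The p-values measure the spread between these arrays and nothing further. WT and db/db mice differed in strain as well as in the mutation, and these cannot be told apart.

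Interleukin-1α and interleukin-1β are alarm cytokines that bind the receptor encoded by Il1r1 and, through the adaptor MyD88 and NF-κB, switch on chemokines that draw neutrophils, proteases and further cytokines. In skin, interleukin-1α and interleukin-33 are held in keratinocytes and released when the barrier is broken, whereas interleukin-1β is made by neutrophils and macrophages as an inactive precursor that caspase-1 or neutrophil proteases cut. The antagonist from Il1rn occupies the receptor without signalling, and the product of Il1r2 binds interleukin-1 but lacks a signalling domain. Interleukin-18 and interleukin-33 belong to the same family and act on receptors of their own.

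The promoters of Il1b, Il1a and Il1r2 are shown because, for label day 7, Il1b and Il1a gave the largest differences between db/db + estrogen and db/db, both lower, and Il1r2 the largest rise between db/db + estrogen and WT. Each line gives the 250 bases before the start of the gene on the gene's strand, taken from the RefSeq table of build GRCm38.p6, with matches to the motifs searched in capitals. Il1b lies on the minus strand at chr2:129371140-129371389, Il1a on the minus strand at chr2:129309973-129310222 and Il1r2 on the plus strand at chr1:40085843-40086092.
Il1b: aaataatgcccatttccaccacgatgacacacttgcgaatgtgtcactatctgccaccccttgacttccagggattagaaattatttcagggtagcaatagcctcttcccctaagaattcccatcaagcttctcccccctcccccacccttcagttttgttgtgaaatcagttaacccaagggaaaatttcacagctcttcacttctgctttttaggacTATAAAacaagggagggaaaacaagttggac
Il1a: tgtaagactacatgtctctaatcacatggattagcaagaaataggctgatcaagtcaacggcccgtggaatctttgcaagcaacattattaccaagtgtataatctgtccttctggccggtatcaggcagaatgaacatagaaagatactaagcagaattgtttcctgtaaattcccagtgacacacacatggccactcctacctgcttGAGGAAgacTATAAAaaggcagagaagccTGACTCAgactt
Il1r2: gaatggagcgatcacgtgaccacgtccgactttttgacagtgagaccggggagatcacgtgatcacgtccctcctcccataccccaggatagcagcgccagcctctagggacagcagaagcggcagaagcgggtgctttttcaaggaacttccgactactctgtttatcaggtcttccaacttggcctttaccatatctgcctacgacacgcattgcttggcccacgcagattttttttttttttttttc
The motifs were those of NF-κB, AP-1 (TGANTCA), C/EBP (TTGCNNAA) and PU.1 (GAGGAA), the TATA box (TATAAA) and a full palindromic estrogen response element, each on both strands. The capitals in Il1b are a TATA box from 31 to 26 bases before the start. Il1a held a PU.1 motif, a TATA box from 32 to 27 bases before the start and an AP-1 motif, none of which overlapped. The window of Il1r2 held none of these letters. Over 32851 windows of the same length, 12.4% held the TATA box, 17.6% the NF-κB motif, 6.75% the AP-1 motif, 9.56% the C/EBP motif, 23.3% the PU.1 motif and 0.0639% the estrogen response element. Of the 11 windows of the 7 genes, 5 held a TATA box, 2 an AP-1 motif, 2 a C/EBP motif, 1 a PU.1 motif and 1 the NF-κB motif, and none held the estrogen response element.

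The level of a probe is given as log2 of its signal relative to the 75th percentile of the same array, so that 0 stands for that percentile and 1 unit for a factor of 2. All 7 probes were well above background on all 16 arrays, and no spot was saturated. Across the arrays, between 70.1% and 79.0% of the probes were well above background. For some genes that the study tabulates, the arrays carrying one day's label hold the fold change printed for the other day. Therefore, which day after wounding an array stands for is not settled here, the arrays are named by their labels, and no course in time is read from them. The 8 arrays labelled day 7 were also scanned on another day than the 8 labelled day 14, and scan and label cannot be told apart.

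**Figure D1:**
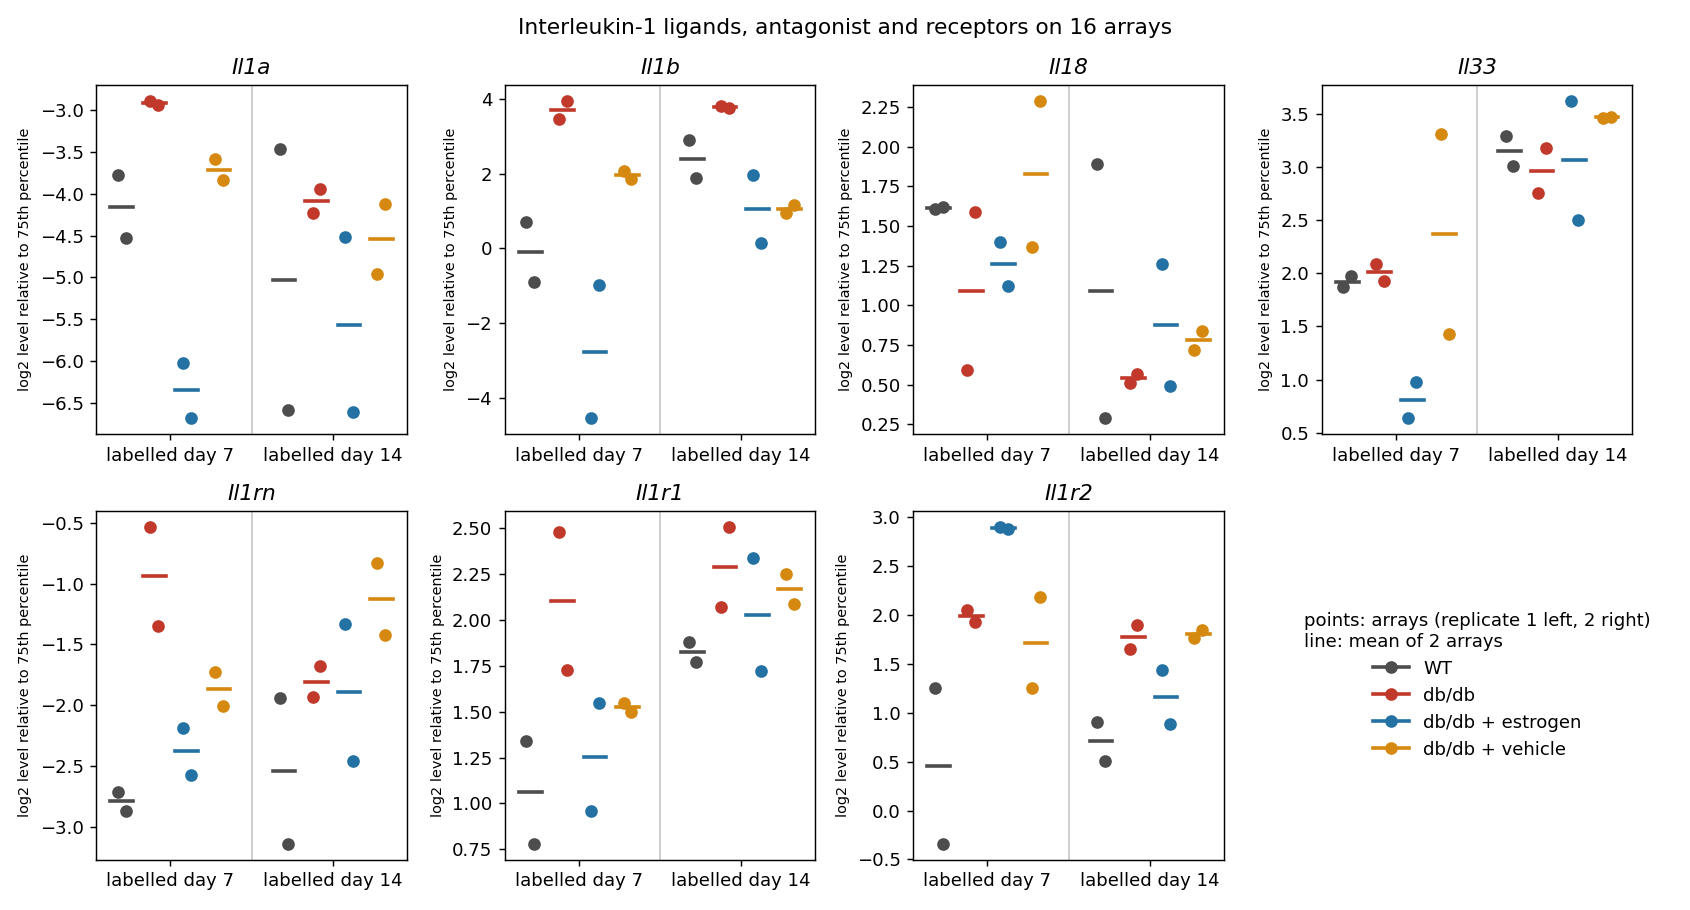
Log2 level relative to the array's 75th percentile (vertical axis) of each of the 7 genes on the 16 arrays, by treatment group (colour) and labelled day. Points are single arrays and lines are means of 2 arrays; the Il1b points of db/db lie above those of every other group on both labelled days, and the Il1r2 points of db/db + estrogen with labelled day 7 are the highest of the 16 at 2.90 and 2.88.

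Il1b, the gene of interleukin-1β, had the widest range of the 7 genes, from −4.55 to 3.95. On the arrays labelled day 7, it stood at 0.69 and −0.90 in the WT group, at 3.46 and 3.95 in the db/db group, at −4.55 and −0.99 in the db/db + estrogen group and at 2.06 and 1.86 in the db/db + vehicle group. Of the arrays labelled day 14, those of WT read 2.91 and 1.87, those of db/db 3.80 and 3.75, those of db/db + estrogen 1.95 and 0.15, and those of db/db + vehicle 0.94 and 1.16. The db/db arrays were thus the highest on either label and overlapped with no other group. The pair with estrogen and label day 7 lay 3.56 apart, an 11.8-fold gap between replicates, although the 10 spots of the probe on each of these arrays had an SD of 0.145 and 0.051. For label day 7 the order of the group means was db/db, db/db + vehicle, WT and db/db + estrogen. In this order only the last neighbours, WT and db/db + estrogen, were called against each other. That difference was −2.66 (limma, adjusted p = 0.19), smaller than the gap of 3.56 between the estrogen arrays, and it was −0.89 and not called without db/db + estrogen replicate 1. The order for label day 14 was db/db, WT and, with equal means, estrogen and vehicle, and no neighbours in it were called against each other.

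Il1a encodes interleukin-1α, which is active without cleavage. It was dim, with levels between −6.68 and −2.89. For label day 7, the levels were −3.78 and −4.53 in WT, −2.89 and −2.94 in db/db, −6.02 and −6.68 with estrogen and −3.59 and −3.84 with vehicle. The estrogen arrays were the lowest of that label and the db/db arrays the highest, with no overlap with any other group. Between them stood vehicle and WT, and of the neighbours in this order only WT and estrogen were called against each other. For label day 14, WT read −3.47 and −6.58, db/db −4.23 and −3.94, estrogen −4.52 and −6.61 and vehicle −4.96 and −4.12. Here the WT pair lay 3.10 apart, so that each db/db group overlapped with WT.

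Il18 and Il33 encode ligands that act through other receptors of the family, on T cells and other lymphocytes among them. Il18 read 1.61 and 1.62 in WT, 0.59 and 1.59 in db/db, 1.40 and 1.12 with estrogen and 1.37 and 2.29 with vehicle for label day 7. On the arrays labelled day 14 its levels were 1.89 and 0.29 in WT, 0.51 and 0.57 in db/db, 1.26 and 0.49 with estrogen and 0.72 and 0.84 with vehicle. Its replicates spread about as widely (pooled SD 0.56) as the 16 arrays as a whole (SD 0.58), and none of its comparisons reached an unadjusted p below 0.05 in limma's test. Il33 read 1.87 and 1.97 in WT, 2.09 and 1.93 in db/db, 0.64 and 0.98 with estrogen and 3.31 and 1.43 with vehicle for label day 7. Under label day 14 it read 3.29 and 3.01 in WT, 2.75 and 3.18 in db/db, 3.62 and 2.50 with estrogen and 3.46 and 3.47 with vehicle. The estrogen pair of label day 7 was the lowest of all 16 arrays for Il33.

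Il1rn, the gene of the antagonist, read −2.71 and −2.87 in WT, −0.53 and −1.35 in db/db, −2.19 and −2.57 with estrogen and −1.73 and −2.01 with vehicle for label day 7. These 4 pairs did not overlap, and their order was db/db, vehicle, estrogen and WT, although no neighbours in it were called against each other. For label day 14 the levels were −1.94 and −3.14 in WT, −1.93 and −1.68 in db/db, −1.33 and −2.46 with estrogen and −0.83 and −1.42 with vehicle. The order there was vehicle, db/db, estrogen and WT, again with no call between neighbours.

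Il1r1, the receptor that signals, kept within a range of 1.73 over the 16 arrays, the narrowest of the 7 genes. It read 1.34 and 0.78 in WT, 2.48 and 1.73 in db/db, 0.96 and 1.55 with estrogen and 1.55 and 1.50 with vehicle for label day 7. On the arrays labelled day 14 it read 1.88 and 1.77 in WT, 2.07 and 2.51 in db/db, 2.34 and 1.72 with estrogen and 2.25 and 2.09 with vehicle. The db/db mean was the highest and the WT mean the lowest on both labels.

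Il1r2, the decoy receptor, read 1.25 and −0.34 in WT, 2.05 and 1.93 in db/db, 2.90 and 2.88 with estrogen and 1.25 and 2.18 with vehicle for label day 7. The WT pair was far apart, by 1.59, and the estrogen pair close, by 0.02. Under label day 14 it read 0.90 and 0.51 in WT, 1.65 and 1.89 in db/db, 1.44 and 0.88 with estrogen and 1.76 and 1.84 with vehicle. Estrogen therefore had the highest mean for label day 7 and the third of the 4 for label day 14, whereas WT had the lowest on both. Of neighbours in these orders, only vehicle and WT of label day 7 were called against each other.

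The first comparison asked how wounds of diabetic mice differed from those of WT mice. For label day 7, Il1b was 14.0-fold higher in db/db than in WT, Il1rn 3.61-fold, Il1r2 2.89-fold and Il1r1 2.07-fold, so that a ligand, the antagonist, the receptor and the decoy receptor rose together. In RNA of a whole wound, fewer cells of a type and less RNA per cell cannot be told apart, and 10 of 13 markers of neutrophils were higher in the same comparison. A gene was called where limma's moderated test gave an unadjusted two-sided p below 0.05 and the fold change was above 2. By this rule 4 of the 7 genes were called, all of them higher, whereas 14.1% of the 29746 probes tested were called, 5.67% higher and 8.42% lower. Il1b differed by 3.81 on the log2 scale (SE 1.01, adjusted p = 0.035) and Il1rn by 1.85 (SE 0.46, adjusted p = 0.029). These 2 genes also passed after Benjamini-Hochberg adjustment over all probes tested, as 9.07% of probes did. Il1r2 (1.53, SE 0.46, adjusted p = 0.054) and Il1r1 (1.05, SE 0.32, adjusted p = 0.059) did not. Il1a had a difference of 1.24, which was also the median of the 7 genes, with an interval from −0.77 to 3.25, and Il18 and Il33 had −0.52 and 0.09. The arrays of replicate 1 shared a slide, as did those of replicate 2, and the difference of Il1b was 2.77 on the one slide and 4.85 on the other, and 3.02 without WT replicate 2 and 4.60 without WT replicate 1. Without WT replicate 2, 2 of the 7 genes were called, and Il1r2 (0.74) and Il1r1 (0.77) were no longer among them. Il1r1 was not called without db/db replicate 1 either (0.67). With only the 4 arrays compared, Il1r1 and Il1r2 lost their calls in limma's test at the same differences, and Il1a was called beside Il1b and Il1rn.

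**Figure D2:**
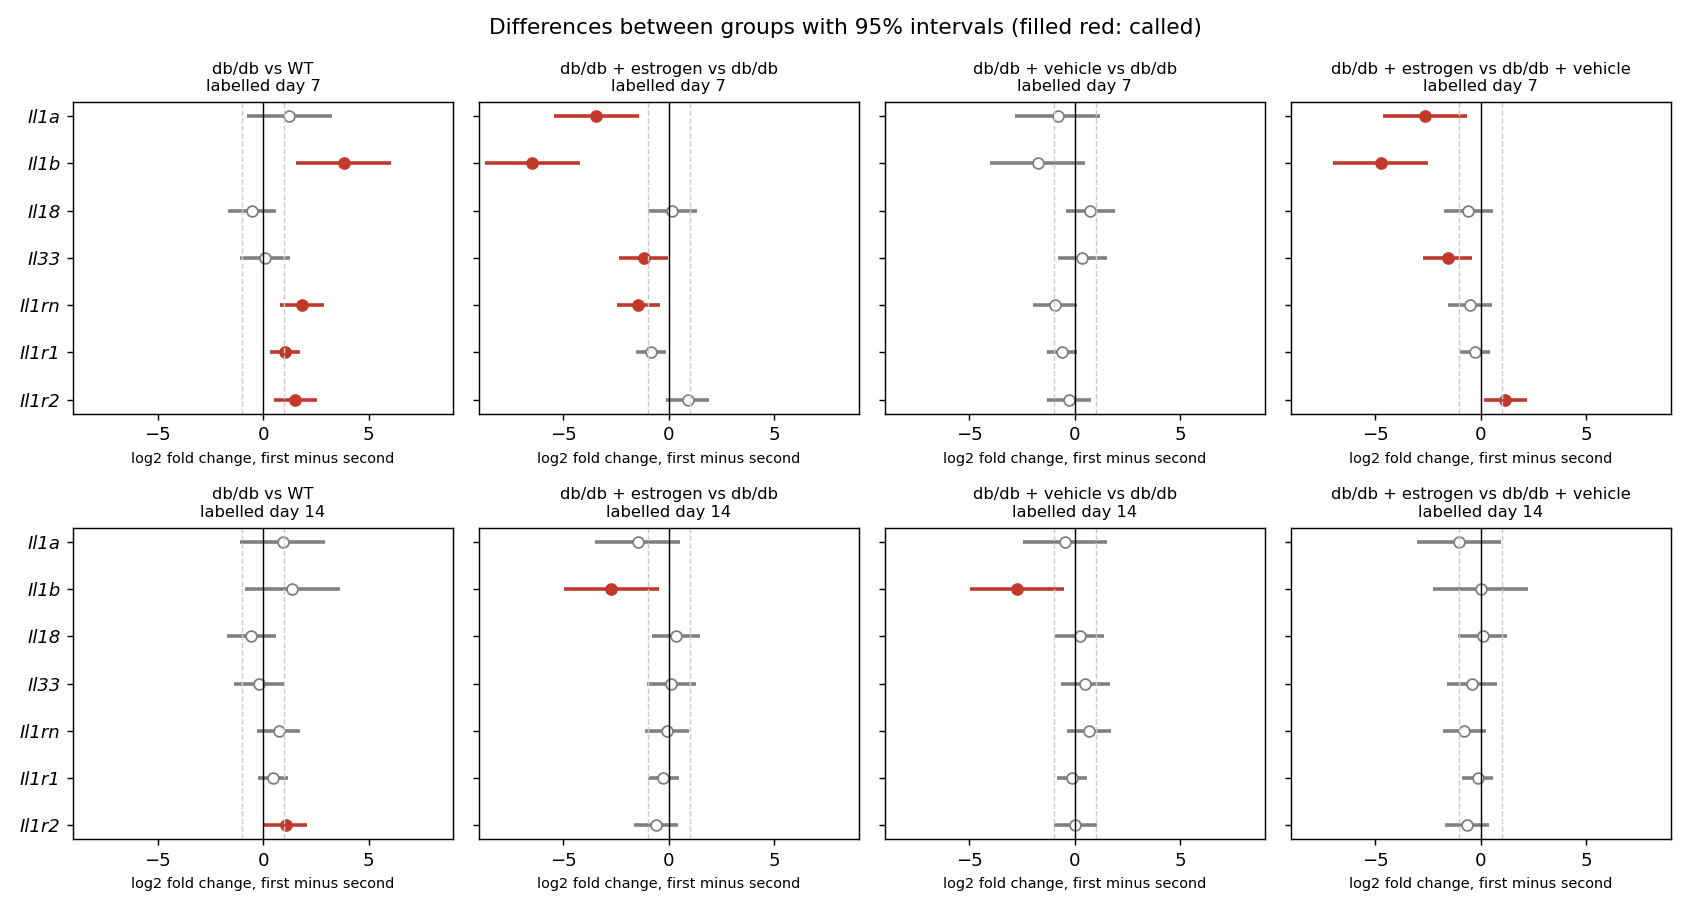
Log2 fold change of the first group named over the second (horizontal axis) for the 7 genes in 4 comparisons, labelled day 7 in the upper row and labelled day 14 in the lower. Bars are 95% intervals from limma, filled red points were called, and dashed lines mark a fold change of 2; 4 points are red in db/db vs WT and 4 in db/db + estrogen vs db/db for labelled day 7, and 1 in each of the first 3 panels for labelled day 14.

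The next comparison set estrogen in sesame oil against no topical treatment in diabetic wounds. Oil and estrogen cannot be told apart in it, and estrogen is compared with the oil alone further below. For label day 7, Il1b was 89.0-fold lower in db/db + estrogen than in db/db, Il1a 10.8-fold, Il1rn 2.71-fold and Il33 2.30-fold. Of the 13 neutrophil markers, 12 were lower in the same comparison, and their part in these values was not tested. Here 4 of 7 genes were called, all lower, against 9.92% of 30189 probes, with 5.22% higher and 4.71% lower. Il1b fell by 6.48 on the log2 scale (SE 1.01, adjusted p = 0.0063), and it was the 1 gene that passed after adjustment, as 4.84% of the probes did. Its difference was −8.01 on one slide and −4.94 on the other, and −4.70 without db/db + estrogen replicate 1 and −8.25 without replicate 2. Il1a changed by −3.44 (SE 0.90, adjusted p = 0.055), Il1rn by −1.44 (SE 0.46, adjusted p = 0.11) and Il33 by −1.20 (SE 0.52, adjusted p = 0.23). With normexp background correction Il1a, the dimmest of the 7 genes, was at −1.89 and still called. Neither receptor was called. Il1r1 was at a difference of −0.85 with an interval from −1.57 to −0.13, below the fold threshold at 1.80-fold, and Il1r2 at 0.90 with an interval from −0.13 to 1.92. Il18 had a difference of 0.16. Without db/db replicate 1, 2 genes were called in place of 4, as Il1rn (−1.03) and Il33 (−1.12) no longer passed, and Il1rn (−1.25) also lost its call without db/db + estrogen replicate 2. Il1r1 was called without db/db replicate 2 and without db/db + estrogen replicate 2. Il33 lost its call when any 1 of the 4 arrays was left out, with differences between −1.37 and −1.03. This comparison and the one before it share the db/db arrays.

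The vehicle alone, sesame oil, came with no call among the 7 genes for label day 7. None was called between db/db + vehicle and db/db, and none had an unadjusted p below 0.05 in limma's test, whereas 4.82% of 29786 probes were called, 2.52% higher and 2.30% lower. The estimates were nevertheless not small for Il1b, with −1.75 and an interval from −3.99 to 0.50, and for Il1rn, with −0.93 and an interval from −1.97 to 0.11. Lower levels of Il1b with the oil than without it were found on both slides, with differences of −1.41 and −2.09. Without db/db replicate 2 Il1rn was called, and without db/db + vehicle replicate 2 Il33 was.

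Against the vehicle, for label day 7, Il1b was 26.5-fold lower with estrogen, Il1a 6.21-fold and Il33 2.95-fold, and Il1r2 was 2.25-fold higher. These 4 of 7 genes compare with 8.99% of 30150 probes called, 4.66% higher and 4.32% lower. Il1b (−4.73, SE 1.01, adjusted p = 0.039) passed after adjustment, as did 2.56% of probes. Il1a (−2.63, SE 0.90, adjusted p = 0.14), Il33 (−1.56, SE 0.52, adjusted p = 0.13) and Il1r2 (1.17, SE 0.46, adjusted p = 0.18) did not. With normexp the difference of Il1a was −1.25, still called. All 4 had the same direction on both slides, with Il1b at −6.60 and −2.85, Il33 at −2.67 and −0.46 and Il1r2 at 1.65 and 0.69. Without db/db + vehicle replicate 1, only Il1b was called among the 7 genes, and Il33 stood at −0.63, against −2.50 without vehicle replicate 2. Il33 also lost its call with only the 4 arrays compared. Without db/db + estrogen replicate 1, Il1b and Il1a were called, with Il1b at −2.95, and without replicate 2, Il1b and Il33, with Il1b at −6.51.

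Set against WT wounds of label day 7, the estrogen-treated wounds had 5.40-fold more Il1r2 (2.43, SE 0.46, adjusted p = 0.017), 6.34-fold less Il1b and 4.58-fold less Il1a. These 3 of 7 genes were called, beside 8.13% of 29774 probes, and Il1r2 alone passed after adjustment, as 3.65% of probes did. The Il1r2 difference was 3.23 without WT replicate 1 and 1.64 without WT replicate 2. That of Il1a was −1.16 with normexp, still called, and lost its call with quantile normalization (−2.04). The Il1b difference of −2.66 was −5.24 on one slide and −0.09 on the other. Without WT replicate 1, or without db/db + estrogen replicate 1, Il1r2 alone was called, and with only the 4 arrays compared Il1b was not called. Between vehicle and WT, 1 of 7 genes was called, beside 10.3% of 29684 probes. It was Il1r2 at 1.26 (SE 0.46, adjusted p = 0.12), whose arrays overlapped, with a difference of 0.00 on one slide and 2.53 on the other, and which stood at 0.46 without WT replicate 2 and at 2.06 without WT replicate 1. Il1b was 4.18-fold higher with an interval from −0.18 to 4.31 on the log2 scale.

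For label day 14, fewer of the 7 genes were called. In db/db against WT, 1 of 7 was, beside 18.0% of 30278 probes, 2.35% higher and 15.6% lower. It was Il1r2, 2.09-fold higher (1.07, SE 0.46, adjusted p = 0.13). Il1b was 2.62-fold higher in db/db with an interval from −0.85 to 3.63, and Il1rn 1.67-fold higher. These db/db arrays lay on one slide and the WT arrays on another. With slide as a block, which is estimated from the treated groups alone, the Il1r2 difference was 0.82 and was not called. It also lost its call, at 0.87 to 1.26, when any 1 of the 4 arrays was left out.

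Il1b was the gene that differed between treated and untreated db/db wounds of label day 14. Against db/db it fell by 2.73 on the log2 scale with estrogen (SE 1.01, adjusted p = 0.45) and by 2.73 with vehicle (SE 1.01, adjusted p = 0.21), 6.64-fold lower in both. In each of these comparisons 1 of 7 genes was called, beside 3.91% of 28245 probes with estrogen, 2.56% higher and 1.36% lower, and 7.51% of 29043 probes with vehicle, 5.31% higher and 2.20% lower. On the slide that held both db/db arrays, the difference was −1.83 for the estrogen array and −2.84 for the vehicle array. With slide as a block, both were −2.34, and neither was called. Without any 1 array the estrogen difference lost its call in 3 of 4 cases, at −2.76 to −1.83, and kept it without db/db + estrogen replicate 1, at −3.63. The vehicle difference lost its call in all 4, at −2.84 to −2.62.

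Between estrogen and vehicle of label day 14 the Il1b means were equal, with a difference of 0.00 and an interval from −2.24 to 2.24. None of the 7 genes was called, and none had an unadjusted p below 0.05 in limma's test, beside 0.984% of 28975 probes called, 0.507% higher and 0.476% lower. The difference was 1.01 on one slide and −1.01 on the other. Without db/db + estrogen replicate 1, Il1rn was called. Between estrogen and WT none of the 7 was called or had an unadjusted p below 0.05 in limma's test either, beside 13.3% of 30272 probes. Between vehicle and WT, 2 of 7 genes were called, beside 13.4% of 30520 probes: Il1rn was 2.67-fold higher (1.42, SE 0.46, adjusted p = 0.072) and Il1r2 2.14-fold higher (1.09, SE 0.46, adjusted p = 0.14). On the slide that held both WT arrays, the vehicle array gave differences of 1.12 and 1.13. With slide as a block these were 0.98 and 0.97, and neither was called. Il1r2 lost its call without any 1 array, at 0.90 to 1.29, and Il1rn lost it without WT replicate 2 (0.82) or db/db + vehicle replicate 1 (1.12) and stood at 2.01 without WT replicate 1.

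Whether a comparison gave another result on one label than on the other was tested directly, as a difference between differences. The difference of Il1b between estrogen and vehicle was apart by −4.73 (SE 1.42, interval from −7.90 to −1.55, adjusted p = 0.27), and that between estrogen and db/db by −3.74 (SE 1.42, adjusted p = 0.40). For Il1r2, the difference between estrogen and vehicle was apart by 1.81 (SE 0.65, adjusted p = 0.34). None of the 7 genes passed after adjustment in any of the 4 contrasts. In these contrasts limma gave unadjusted p-values of 0.0078, 0.025 and 0.020 for the 3 differences named.

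The partners of the 7 genes were followed as 5 lists, read through 1 probe per gene. The lists were chosen with earlier results of these data known, so their counts describe the arrays and give no independent support. The induced genes include Cxcl3 and Mmp10, which the study lists among its strongest falls with estrogen. Their counts for label day 7 stand beside 5.67% of all probes higher and 8.42% lower in db/db than in WT, 5.22% higher and 4.71% lower with estrogen than in db/db, 4.66% higher and 4.32% lower with estrogen than with vehicle, and 2.52% higher and 2.30% lower with vehicle than in db/db. The list of genes that interleukin-1 is known to induce had 22 of its 23 genes tested for label day 7, of which 16 were higher and none lower in db/db than in WT, with a median log2 fold change of 2.82 where that of all probes tested was −0.05. Csf3, the growth factor of neutrophils, was 92.3-fold higher (adjusted p = 0.0064), although it was above background on 1 of the 2 WT arrays. The chemokine Cxcl2 was 22.7-fold higher (adjusted p = 0.013), the iron-binding protein Lcn2 14.7-fold (adjusted p = 0.0010) and Tnf 8.89-fold (adjusted p = 0.0034). With estrogen against db/db, 15 of 22 were lower and 1 was higher, with a median of −3.25 where that of all probes was 0.04. The acute-phase gene Saa3 was 77.5-fold lower (adjusted p = 0.0054), the nitric oxide synthase Nos2 30.4-fold (adjusted p = 0.0066), Lcn2 12.4-fold (adjusted p = 0.0025) and Tnf 8.84-fold (adjusted p = 0.0051). The gene that rose, named after its value was seen, was Tslp at 2.37-fold (limma, adjusted p = 0.18). Against vehicle, the counts were again 15 lower and 1 higher of 22, among them the chemokines Cxcl1 (13.8-fold lower, adjusted p = 0.013) and Cxcl5 (103-fold lower, adjusted p = 0.018), with a median of −2.74. Vehicle against db/db gave 4 lower of 22 with a median of −0.57, and these 4, Cxcl2, Lcn2, Mmp3 and Tnf, did not pass after adjustment.

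**Figure D3:**
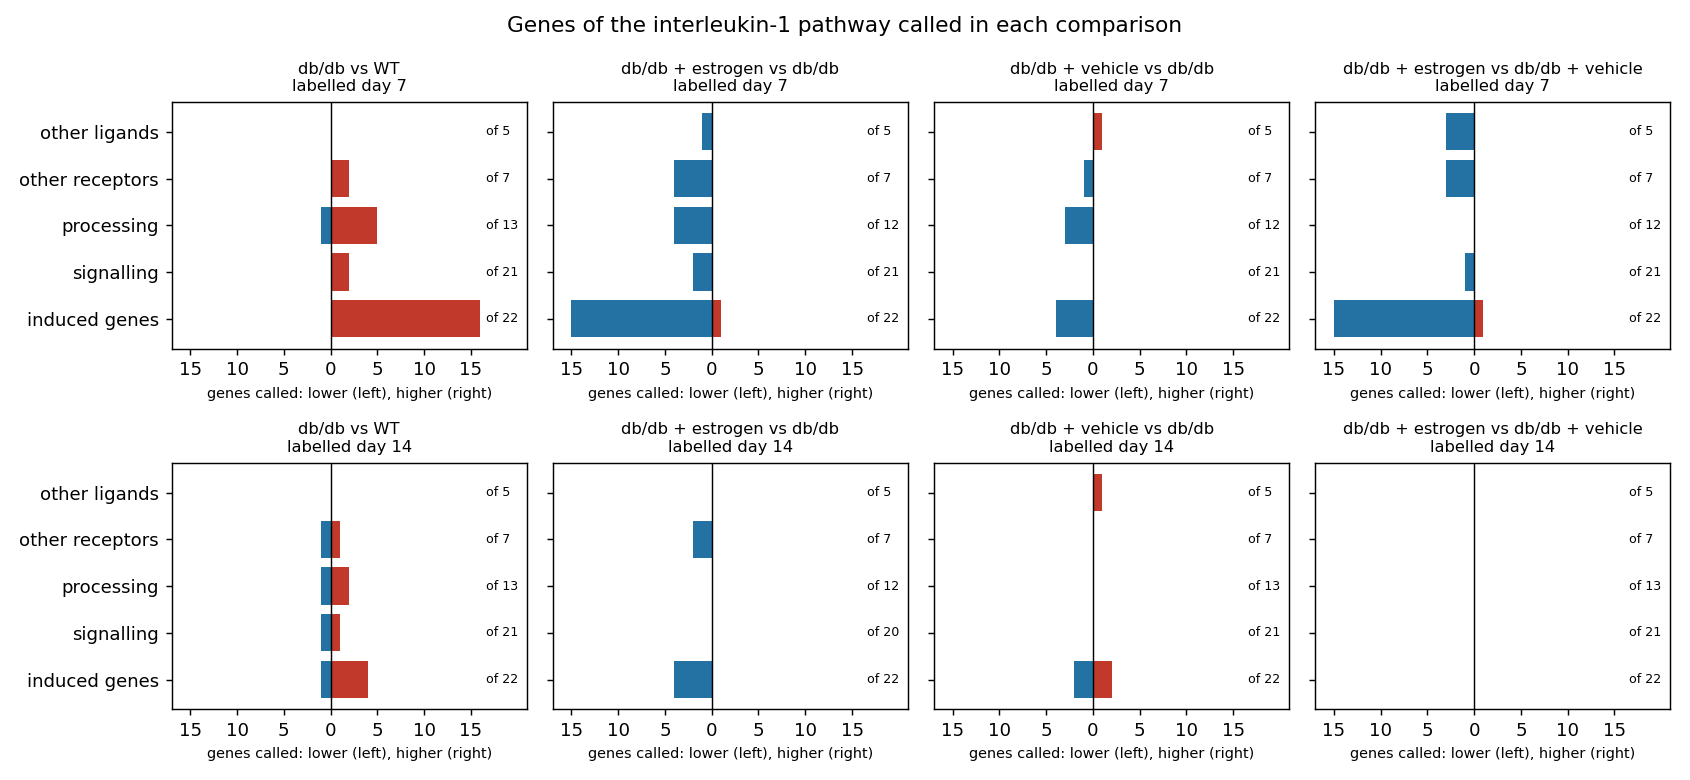
Number of genes called lower (blue, left of 0) and higher (red, right of 0) in each of 5 lists of the interleukin-1 pathway, by comparison, labelled day 7 above and labelled day 14 below; the figure beside each bar is the number tested. The longest bars are those of the induced genes, with 16 higher in db/db vs WT and 15 lower with estrogen against db/db and against vehicle for labelled day 7.

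Among other receptors of the family, Il18rap, the accessory chain of the interleukin-18 receptor, was 6.18-fold higher in db/db than in WT for label day 7 (adjusted p = 0.0063), and Il1rl1, the receptor of interleukin-33, was 3.77-fold higher (adjusted p = 0.15). These were 2 of 7 tested, none of which was lower, beside 5.67% of all probes higher. With estrogen against db/db, 4 of 7 were lower. They were Il18rap (12.3-fold, limma, adjusted p = 0.0025), its partner chain Il18r1 (2.99-fold, adjusted p = 0.012) and Il1rl1 (12.9-fold, adjusted p = 0.030). The fourth was Il1rap, the accessory chain shared by several receptors of the family (2.34-fold, adjusted p = 0.072). Against vehicle, 3 of 7 were lower, namely Il18r1 (3.83-fold, adjusted p = 0.011), Il18rap (5.86-fold, adjusted p = 0.019) and Il1rl1 (5.31-fold, adjusted p = 0.14). With vehicle against db/db Il18rap alone was called, 2.10-fold lower (adjusted p = 0.34).

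The other ligands, the interleukin-36 genes, their antagonist and Il1f10, had no call among 5 between db/db and WT. With estrogen, Il36g was 3.34-fold lower than in db/db (limma, adjusted p = 0.10). Lower with estrogen than with vehicle were Il36g (5.75-fold, adjusted p = 0.043), Il36b (5.19-fold, adjusted p = 0.13) and Il36a (3.81-fold, adjusted p = 0.16). Il36b was 3.64-fold higher with vehicle than in db/db (adjusted p = 0.34). Of these calls, only that of Il36g against vehicle passed after adjustment. Among 13 genes that process the ligands, 5 were higher and 1 was lower in db/db than in WT. The higher ones included Ctsg at 70.8-fold (adjusted p = 0.00012), Elane at 2.73-fold and Nlrc4 at 3.52-fold. Ctsg and Elane encode proteases of neutrophil granules. Ctsg was also higher than in WT with estrogen, 26.3-fold (limma, adjusted p = 0.00067), and with vehicle, 16.8-fold (adjusted p = 0.0012). The mean of Ctsg for label day 7 was −4.25 in WT and 0.47 with estrogen. On the same arrays, the mean level of the neutrophil markers was lower with estrogen (−2.81 and −2.36) than in WT (−1.02 and −1.72). Which cells carried Ctsg was not tested. Nlrp1b, an inflammasome sensor, gave a bound of at least 19.6-fold less signal in db/db (WT mean −3.12), where it was not well above background on either array (adjusted p = 0.0054). Its mean lay between −8.18 and −7.09 in every db/db group of both labels, treated or not, and at −2.44 in WT of label day 14. Strain and mutation cannot be told apart in these comparisons with WT. With estrogen against db/db, 4 of 12 were lower: Casp4 (2.19-fold, limma, adjusted p = 0.0093), Prtn3 (6.50-fold, adjusted p = 0.014), Elane (2.44-fold, adjusted p = 0.027) and Ctsg (2.69-fold, adjusted p = 0.11). With vehicle against db/db, 3 of 12 were lower: Prtn3 (5.32-fold, adjusted p = 0.097), Ctsg (4.21-fold, adjusted p = 0.11) and Nlrc4 (2.04-fold, adjusted p = 0.26). Ctsg with estrogen and all 3 with vehicle thus did not pass after adjustment. Against vehicle, none of these 12 was called with estrogen.

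Of the 21 signalling genes, 2 were called in db/db against WT for label day 7, beside 14.1% of all probes, and 2 with estrogen against db/db, beside 9.92%, shares near those of all probes. In db/db against WT, Irak3, which damps the receptor, was 2.40-fold higher and Tnfaip3, which ends NF-κB signalling, 2.12-fold higher. With estrogen against db/db, Tnfaip3 was 4.07-fold lower (limma, adjusted p = 0.0027) and Nfkbiz 2.04-fold lower (adjusted p = 0.063). Against vehicle Tnfaip3 was 2.06-fold lower (adjusted p = 0.057). On the arrays labelled day 14 the induced genes gave 4 higher and 1 lower of 22 in db/db against WT, beside 2.35% of all probes higher and 15.6% lower. Against db/db, 4 were lower with estrogen, beside 1.36% of all probes lower, and 2 were higher and 2 lower with vehicle, beside 5.31% and 2.20%. There was no call between estrogen and vehicle, where limma's test gave none in the other 4 lists either. Of the induced genes, the 1 lower in db/db than in WT was Tslp, at −2.44 on the log2 scale (limma, adjusted p = 0.0085). The higher ones included Cxcl1 at 1.95 (adjusted p = 0.047) and Cxcl2 at 2.42 (adjusted p = 0.087). With estrogen against db/db Cxcl2 was lower, at −2.58 (adjusted p = 0.42). Among the receptors of label day 14, Il18r1 was lower in db/db than in WT, at −1.12 (limma, adjusted p = 0.023), and Il1rl1 was higher, at 2.09 (adjusted p = 0.10). Il1rl1 was lower with estrogen than in db/db, at −2.26 (adjusted p = 0.44). The differences of Cxcl2 and Il1rl1 did not pass after adjustment, whereas those of Tslp, Cxcl1 and Il18r1 between db/db and WT did.

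The mean log2 level of the neutrophil markers moved with Il1b, whereas their summed level did not throughout. This list too was chosen with earlier results of these data known. It holds Retnlg, Ngp, Ltf, Mpo and Camp, which the study prints among the top upregulated genes of db/db, so its counts give no independent support. For label day 7, the counts of these markers stand beside the shares of all probes given for the 5 lists. Of 13 such markers, 10 were higher in db/db than in WT for label day 7, with a median log2 fold change of 4.70, 12 were lower with estrogen than in db/db, with a median of −5.49, and 8 were lower with estrogen than with vehicle, with a median of −2.83. Vehicle against db/db gave 7 lower with a median of −2.01. The summed level of the list, in multiples of the 75th percentile and carried mostly by S100a9, which keratinocytes also make, ran from 352 to 394 in WT, 458 to 527 in db/db, 51.2 to 66 with estrogen and 464 to 491 with vehicle. Under label day 14, 6 of the 13 markers were higher and 1 was lower in db/db than in WT (median 1.90). Beside this, 2.35% of all probes were higher and 15.6% lower. With estrogen 3 were lower than in db/db (median −1.55), beside 1.36% of all probes lower. With vehicle 5 were lower than in db/db (median −1.35), beside 2.20% lower. None was called between estrogen and vehicle (median −0.07), beside 0.984% of all probes. The summed levels for that label, in the same order of groups, were 360 to 498, 280 to 324, 327 to 366 and 359 to 393. They were thus lowest in db/db, where Il1b was highest. Ngp, a protein of neutrophil granules, was not above background on either WT array of label day 7, and Retnlg was on 1 of them, whereas Ngp and Cxcr1 were above it on 1 of the 2 estrogen arrays each. Over the 16 arrays, the mean of these markers correlated with Il1b at r = 0.86, with Il1r1 at 0.70, with Il1a and Il1rn at 0.69 each, and with Il1r2 at 0.06. The arrays form 8 pairs of replicates and share their scaling, so this describes them and no more.

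Markers of other cells were read in the same way for label day 7. Their counts stand beside 5.67% of all probes higher and 8.42% lower in db/db than in WT. With estrogen against db/db, 5.22% of all probes were higher and 4.71% lower. Of 9 markers of monocytes and macrophages, 4 were higher and 2 lower in db/db than in WT, and 1 was higher and 2 lower with estrogen than in db/db, for label day 7. Their summed level, led by Csf1r, ran from 54.8 to 85.6 in WT, 128 to 140 in db/db, 112 to 126 with estrogen and 97.9 to 105 with vehicle. Of 12 keratinocyte markers, none was higher and 2 were lower in db/db than in WT, and 2 were higher and 2 lower with estrogen than in db/db, with a summed level led by Krt5 from 847 to 879 in WT, 415 to 616 in db/db, 576 to 754 with estrogen and 918 to 1010 with vehicle. Keratinocytes store Il1a and Il33 products, and the mean of their markers correlated with Il18 at r = 0.67, with Il1a at 0.39 and with Il33 at 0.33 over the 16 arrays. Among 5 mast cell markers tested, 2 were higher in db/db than in WT and none was called with estrogen against db/db, and Ms4a2, a chain of the mast cell IgE receptor, was above background on none of the WT, db/db and vehicle arrays. Over the 16 arrays, the mean of the mast cell markers correlated with Il1r2 at r = 0.77 and that of the monocyte and macrophage markers with Il1rn at 0.74. The part that any of these cells had in the levels of the 7 genes was not tested.

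**Figure D4:**
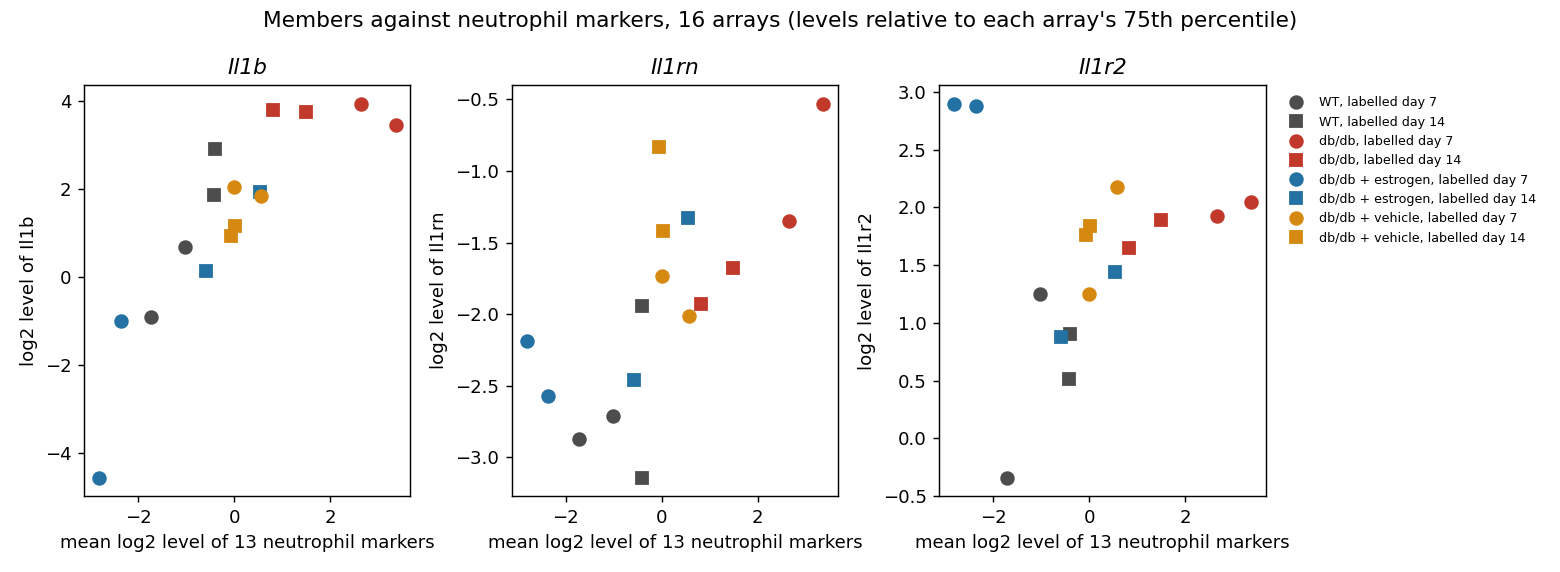
Log2 level of Il1b, Il1rn and Il1r2 (vertical axes) against the mean log2 level of 13 neutrophil markers (horizontal axes) on the 16 arrays, coloured by treatment, with circles for labelled day 7 and squares for labelled day 14. Il1b lies along the markers (r = 0.86), whereas the 2 arrays of db/db + estrogen with label day 7 have the lowest marker levels, −2.81 and −2.36, and the highest Il1r2.

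The genes most like each of the 7 over the 16 arrays were taken from 16295 symbols whose probe was above background on at least 12 arrays. For Il1b they were Cxcl2 (r = 0.936), the leukocyte membrane protein Mcemp1 (0.927), Cstdc4 (0.919), Fpr1, a formyl peptide receptor of phagocytes (0.915), and Ifitm1 (0.910). For Il1a they included Slc39a4 (0.859), Arg2 (0.857), Dusp16 (0.841) and Prdm1 (0.839), and for Il1rn Ptpn12 led at 0.937, ahead of 5730416F02Rik (0.915) and Cd47 (0.886). Il1r1 was closest to Slit3 (0.924), Fcrlb (0.921) and Sod3 (0.919), and Il1r2 to Insig1 (0.901), Mrps6 (0.898) and Clec4b1 (0.882). Il18 was closest to Rnf227 (0.957), and Il33 to Suco (0.961), Pxdc1 (0.954) and Map7d2 (0.940). Between the 7 genes themselves, the highest r were 0.70 for Il1b with Il1r1, 0.69 for Il1rn with Il1r1 and 0.64 for Il1b with Il1a and for Il33 with Il1r1, and Il18 with Il1r1 gave −0.54. None of these values carries a test.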

How the data were processed

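RNA of whole wounds was hybridised to 16 Agilent one-colour mouse arrays of 4 treatment groups and 2 labelled days, with 2 arrays in each of 8 groups, and the number of arrays limits the precision. The deposited scanner files hold an intensity per spot that the authors' Feature Extraction 11.0.1.1 had background-subtracted and detrended across the slide, without scaling between arrays. The authors' deposited table holds a ratio, the intensity divided by the array's 75th percentile (GeneSpring), and served as an alternative. Control spots and outlier flags were left out and spots of a probe averaged, and log2 of the intensity minus the array's log2 75th percentile was fitted with limma 3.58.1 in R 4.3.3, with 1 coefficient per group over all 16 arrays (8 residual degrees of freedom). The probes tested in a comparison were those that 1 or both of its groups had well above background on each of the 2 arrays, and p-values were adjusted over all probes tested. With 2 arrays against 2, an exact permutation test could not go below a two-sided p of 0.333, so only limma's p-values are given. Probes were named through RefSeq, and a gene with several probes was read through the brightest. From each list, up to 4 called genes with the smallest p were named in a comparison, and the 5 symbols most like each of the 7 genes were taken by Pearson's r, of which some are not reported here. The 7 genes and all lists were chosen with earlier results of these data known. The alternatives were normexp background correction with an offset of 50, quantile normalization, the authors' ratios, other filters and a floor on dim probes, slide or replicate number as a block, the 4 arrays of a comparison alone, an adjusted threshold, and each array left out. The fits were tested on simulated data.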

Additional observations from a re-analysis of the deposited data

Results flagged for a closer look

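The 7 genes were looked through in 4 contrasts. For 2 of the 7 genes, all arrays of a treatment lay on one side of the control group for label day 7 and on the other side for label day 14. Il1r2, the decoy receptor, with estrogen lay 0.90 above untreated db/db for label day 7 and at a difference of −0.61 for label day 14. Against vehicle, Il1r2 with estrogen was at 1.17 and −0.64. These pairs of values differed by 1.51 (SE 0.65, adjusted p = 0.48) and by 1.81 (SE 0.65, adjusted p = 0.34) in limma's test of the difference, and both rest on the same estrogen arrays. Il1rn, the antagonist, was at −0.93 between db/db + vehicle and db/db for label day 7 and at 0.68 for label day 14, a difference of −1.61 (SE 0.66, adjusted p = 0.98). Arrays on opposite sides for the 2 labels were found in 1 of 7 genes in each of these 3 contrasts, beside 6.74% of all probes for estrogen against db/db, 8.26% for estrogen against vehicle and 4.83% for vehicle against db/db. None of these differences passed after adjustment over all probes. The labels were scanned on different days and lie on different slides, and these cannot be told apart from the day.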

How the results depend on the processing

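Of the 7 genes, the number called after adjustment for label day 7 was 2 in db/db vs WT, 1 in estrogen vs db/db, 1 in estrogen vs vehicle, 1 in estrogen vs WT and 0 in vehicle vs WT. For label day 14 it was 0 in db/db vs WT, 0 in estrogen vs db/db, 0 in vehicle vs db/db and 0 in vehicle vs WT, where 1, 1, 1 and 2 genes had been called without adjustment. With normexp, 1 gene was called in vehicle vs db/db and 2 in vehicle vs WT for label day 7. With the 4 arrays of a comparison alone, 1 was called in vehicle vs db/db of label day 7 and 2 in db/db vs WT of label day 14. For label day 14, quantile normalization gave 0 in db/db vs WT and 1 in vehicle vs WT, and slide as a fixed block gave 0 in db/db vs WT, 0 in estrogen vs db/db and 0 in vehicle vs WT. Replicate numbers did not pair the arrays: deviations of same-numbered arrays correlated between −0.31 and 0.39 for label day 7 and −0.45 and 0.32 for label day 14. With the replicate block, 0 genes were called in db/db vs WT and 1 in vehicle vs WT of label day 14, Il33 (−1.20) lost its call in estrogen vs db/db of label day 7, and the pairing moved no other count by over 1.5 times. Leaving out 1 array at a time gave, for label day 7, 2 to 4 genes in db/db vs WT, 2 to 4 in estrogen vs db/db, 0 to 1 in vehicle vs db/db, 1 to 4 in estrogen vs vehicle, 1 to 2 in estrogen vs WT and 0 to 2 in vehicle vs WT. For label day 14 it gave 0 to 2 in db/db vs WT, 0 to 2 in estrogen vs db/db, 0 in vehicle vs db/db, 0 to 1 in estrogen vs vehicle, 0 to 1 in estrogen vs WT and 0 to 2 in vehicle vs WT. No difference that was called changed direction under any alternative run, and Il1b kept its call in db/db vs WT, estrogen vs db/db and estrogen vs vehicle of label day 7 under each alternative run, the adjusted threshold included. With quantile normalization the median over all probes tested went from −0.12 to 0.07 in db/db vs WT of label day 14, and normexp from −0.05 to −0.19 in that of label day 7. The cause of these changes was not tested. No share of all probes called stands beside the counts under these alternatives. These counts therefore show only how far the calls of the 7 genes depended on the processing. Since each gene had 1 probe, other probes of a gene could not be tried.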
